A study of Homo sapiens with 6 samples.

Results

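Intermediate filament genes were compared between CD133+ and CD133- cells of HCT116, an established human colorectal carcinoma line. CD133 is a membrane protein encoded by PROM1 and serves as a sorting marker for cells thought to start tumours. The cells were sorted into a positive and a negative fraction without a further treatment named in the labels, and total RNA of 3 repetitions per fraction was hybridised to 6 Affymetrix arrays. All arrays come from the same line, and the labels do not say whether a repetition had its own culture or sort, and every p-value below therefore rests on the spread among these 6 arrays alone, part of which may be technical. The members were 59 of 18404 genes measured by a probe set with a single gene symbol. They comprised 48 keratin genes, defined as KRT followed by a number and at most a letter, and 11 others, namely VIM, NES, DES, SYNM, GFAP, NEFL, NEFM, NEFH, LMNA, LMNB1 and LMNB2. Of the 55 protein-coding genes with such a keratin symbol in RefSeq, 7 had no probe set of their own in the annotation and were not analysed here.

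Intermediate filaments are rope-like polymers that give cells mechanical strength. Keratins form obligate pairs of an acidic type I chain, encoded on chromosome 17 apart from KRT18, and a basic type II chain, encoded on chromosome 12. Simple epithelia such as the colonic lining use KRT8 with KRT18, KRT19 and KRT20, stratified epithelia and hair use other pairs, and vimentin is the filament of mesenchymal cells that many carcinoma cells also make. Lamins line the inside of the nuclear envelope in nearly all cells.

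Signals are on the log2 scale after Robust Multichip Average (RMA) processing, and every difference is CD133+ minus CD133-. Probe sets differ in how strongly they bind, so signals are compared between arrays and not between genes. PROM1 measured 7.35 ± 0.25 in CD133+ and 4.57 ± 0.67 in CD133- cells (SD, n = 3 each), which checks the labels, with a limma adjusted p of 0.142 in the group fit and 0.0120 in the block fit. Same-numbered arrays of the fractions deviated together, so tests were run with group as the only term and also with repetition as a block. An SE or interval with no fit named is of the group fit, also where it stands beside a p of the block fit. For the 57 members other than VIM and KRT23, the limma adjusted p of the group fit was at least 0.767. Array medians ran from 5.44 to 5.60.

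With group as the only term, 0 of 59 members passed a limma adjusted p of 0.05, as did 0.00354% of all 28230 probe sets, and 5 members had an unadjusted p under 0.05 (8.47%, against 3.45% of probe sets), 2 higher (1.64% of probe sets) and 3 lower (1.81%). With repetition as a block, 2 members passed, against 0.298% of probe sets. KRT23 rose in CD133+ cells (0.166% of probe sets were called higher) and VIM fell (0.131% were called lower). At an unadjusted p under 0.05 in the block fit there were 11 members (18.6%, against 11.3% of probe sets), 3 higher (5.82% of probe sets) and 8 lower (5.53%). The fractions did not overlap for 9 members (15.3%, against 7.95% of genes), 2 higher (3.43% of genes) and 7 lower (4.52%). Differences within the 3 repetitions shared a sign for 22 members (37.3%), against 36.1% of genes. The median difference over the 59 members was -0.04, with 37 lower (62.7%) and 22 higher, and the median over all genes was -0.0064. Lower values were found for 52.1% of all genes, and for 47.4% of genes above the median probe set signal. The median of members was -0.078, -0.094 and -0.0093 without CD133- array 1, 2 and 3 in turn.

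**Figure D1:**
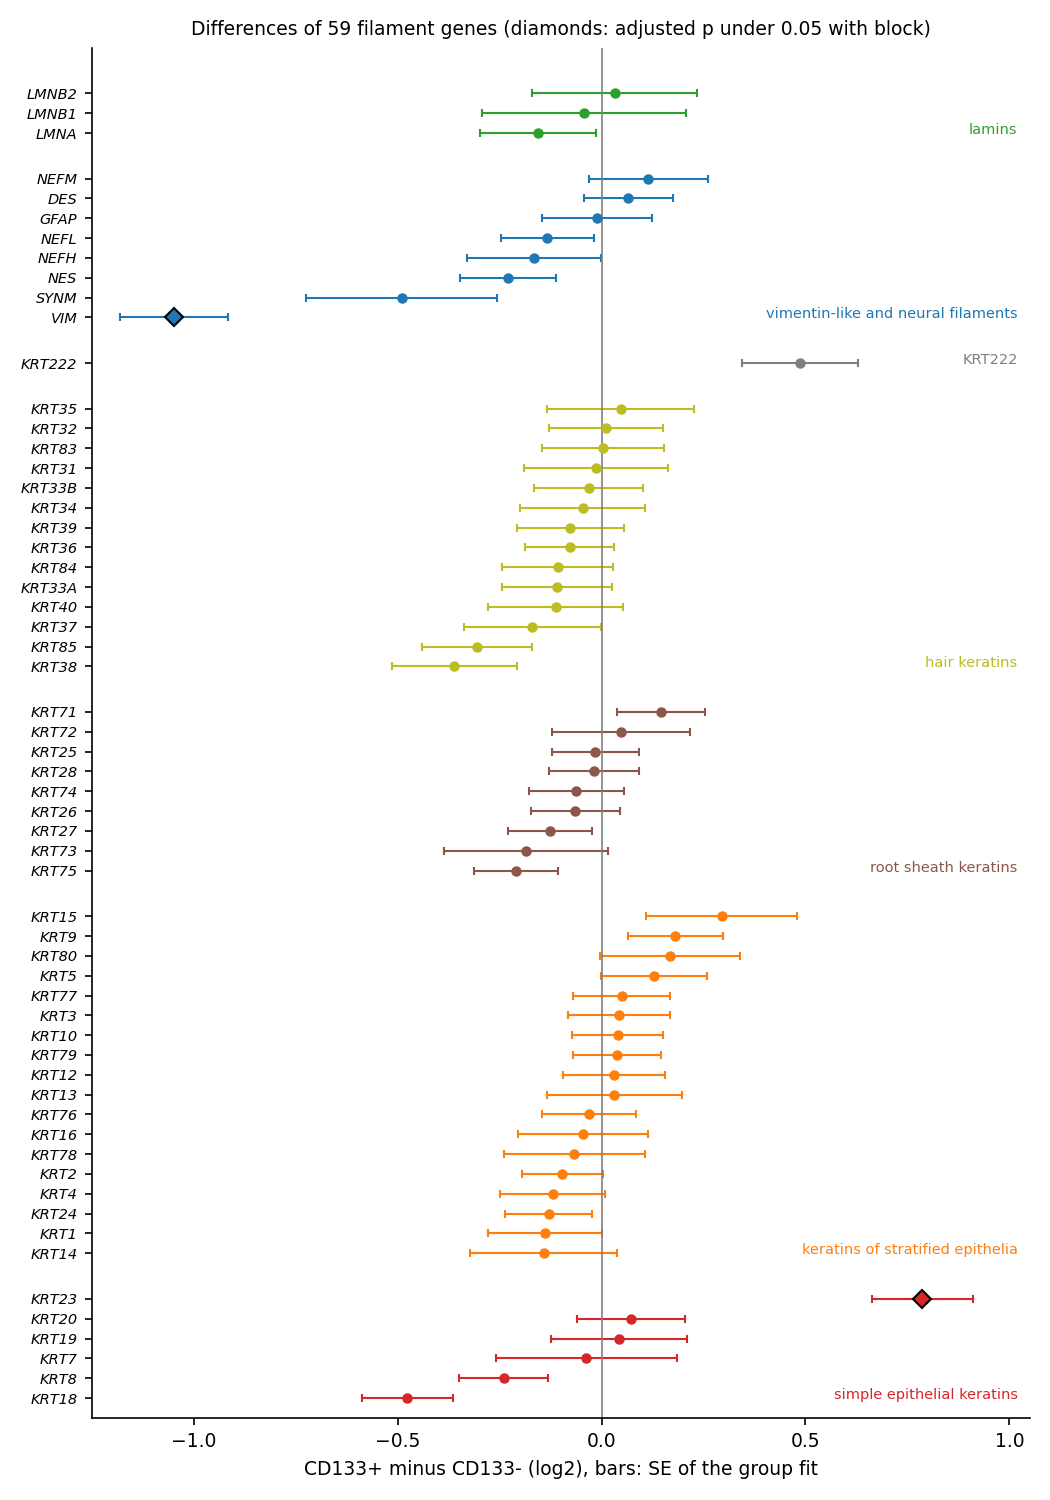
Difference between CD133+ and CD133- cells on the log2 scale for each of the 59 filament genes, grouped by class, with bars showing the standard error of the group fit. KRT23 at 0.79 and VIM at -1.05, drawn as diamonds, lie farthest from 0 and are the 2 members that passed with the repetition block.

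Simple epithelial keratins did not move as a group, with 3 of 6 members higher and 3 lower. KRT23, a type I keratin described in gastrointestinal tumours, was the highest of them in its difference. Its probe set (8015133) measured 6.84, 6.99 and 6.79 in CD133+ repetitions 1, 2 and 3, and 6.01, 6.26 and 5.99 in the matching CD133- arrays. Every CD133+ array lay above every CD133- array, and the gap within each repetition was 0.83, 0.73 and 0.80. Mean signals of 6.87 ± 0.10 and 6.09 ± 0.15 (SD, n = 3 each) differed by 0.79 (SE 0.12), which is 1.73-fold higher in CD133+ cells. In limma the adjusted p was 0.249 for the group fit and 0.0301 for the block fit. The exact two-sided permutation test of 3 against 3 arrays gave p = 0.1, the smallest it can give. The block call ended without repetition 1 (adjusted p = 0.0910), 2 (0.0934) or 3 (0.179), and with the leading control probe sets included (0.148). The KRT23 difference was then 0.77, 0.82 and 0.78, and 0.79 with the controls. Over the whole array 43, 18 and 0 of 28230 probe sets passed without repetition 1, 2 and 3, and 0 of 32321 with the controls.

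KRT18, the type I chain that pairs with KRT8 in simple epithelia, was lower in CD133+ cells in 3 of 3 repetitions but passed in neither fit. Its probe set of higher mean (8154725) measured 11.09, 11.24 and 11.12 in CD133+ repetitions 1, 2 and 3, and 11.51, 11.73 and 11.64 in CD133- cells. The fractions did not overlap. Mean signals of 11.15 ± 0.08 and 11.63 ± 0.11 (SD, n = 3 each) differed by -0.48 (SE 0.11), with a limma adjusted p of 0.767 in the group fit and 0.0989 in the block fit. It passed in the block fit when dim probe sets were left out (adjusted p = 0.0203) or the variance prior followed the signal (0.0104). Calls also rose over all probe sets there, to 403 of 14115 and 347 of 28230, against 84 of 28230 in the plain block fit.

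KRT18 is a gene with many processed copies, and RefSeq lists 68 KRT18 pseudogenes, so its signal is uncertain where copies share sequence. The 2 annotated genes next to probe set 8154725 in identifier order, IFNK and ACO1, lie on chromosome 9 in RefSeq, while KRT18 lies on chromosome 12. The other KRT18 probe set (7955637), which stands in that order between ARL2BP of chromosome 16 and EIF4B of chromosome 12, measured 10.21, 10.32 and 10.27 in CD133+ and 10.60, 10.70 and 10.63 in CD133- repetitions 1, 2 and 3. Its difference was -0.38 (SE 0.10; limma adjusted p = 0.155 with the block), again without overlap. A further probe set, annotated to KRT18 together with a microRNA gene and therefore assigned to no gene, differed by -0.45 (SE 0.10). All 3 probe sets were lower in CD133+ cells in 3 of 3 repetitions. Probe sets annotated to the pseudogenes KRT18P59 and KRT18P55 had lower mean signals in CD133+ cells too, without passing. Their differences were -0.17 (SE 0.11, lower in 3 of 3 repetitions) and -0.23 (SE 0.12, lower in 2 of 3). Which copies each of these probe sets measures was not tested.

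KRT8, the type II partner of KRT18, was also lower in 3 of 3 repetitions. It measured 11.87, 11.98 and 11.84 in CD133+ and 12.12, 12.24 and 12.06 in CD133- repetitions 1, 2 and 3. The lowest CD133- array stood just above the highest CD133+ array, and the gaps within repetitions were -0.25, -0.26 and -0.21. The log2 difference was -0.24 (SE 0.11), with limma adjusted p = 0.336 with the block. RefSeq lists 52 KRT8 pseudogenes, so the same uncertainty applies. A probe set of the pseudogene KRT8P41 had -0.15 (SE 0.11), lower in 2 of 3 repetitions and without passing.

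KRT19, a type I keratin of simple epithelia, measured 11.17, 10.83 and 11.12 in CD133+ and 11.24, 10.71 and 11.05 in CD133- repetitions 1, 2 and 3. Repetition 2 was low in both fractions and the fractions overlapped. The difference was 0.04 with a 95% interval of -0.34 to 0.43 in the group fit and -0.16 to 0.25 with the block.

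KRT7, a type II keratin of ductal epithelia, measured 6.25, 7.01 and 6.65 in CD133+ and 6.45, 7.01 and 6.56 in CD133- cells. It followed the repetition, and the difference was -0.04 (95% interval -0.55 to 0.48). KRT20, a keratin of differentiated colonocytes, measured 4.16, 4.33 and 3.90 in CD133+ and 4.06, 4.05 and 4.06 in CD133- cells, below the median probe set signal of 5.53. Its difference was 0.07 (95% interval -0.23 to 0.38), with the CD133+ arrays on either side of the CD133- arrays.

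**Figure D2:**
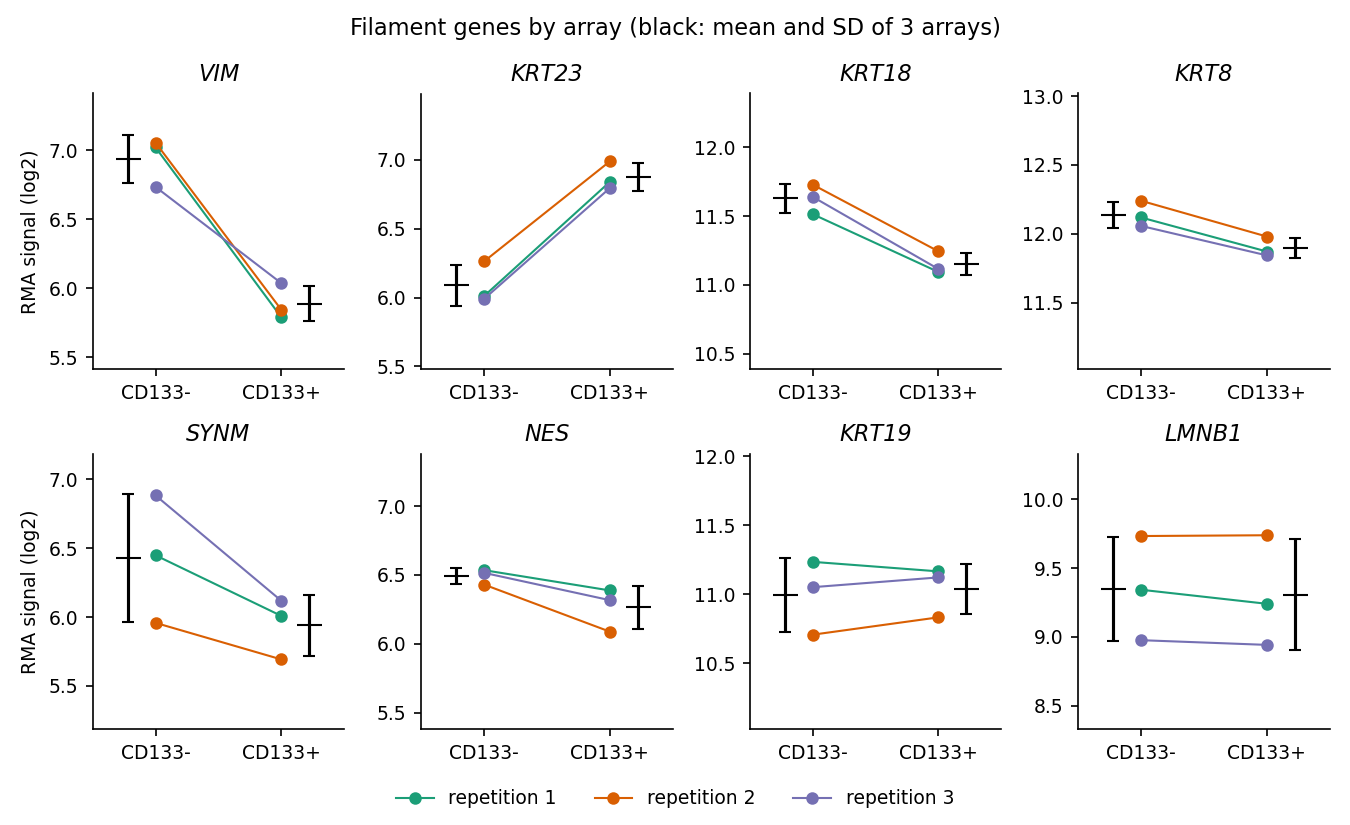
RMA signal on the log2 scale of 8 filament genes in each array, with coloured lines joining the CD133- and CD133+ arrays of a repetition and black marks giving the mean and SD of 3 arrays; each panel spans 2 log2 units. VIM, KRT18, KRT8, SYNM and NES slope down towards CD133+ in all 3 repetitions and KRT23 slopes up, while the LMNB1 lines are nearly flat and separated by repetition.

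Keratins of stratified epithelia, which build epidermis, cornea and oral lining, were spread around 0. Of 18 members 10 were higher and 8 lower, differences ran from -0.14 to 0.29, the median was 0.03 and 0 passed in either fit. Of these, 5 had a mean signal above the median probe set. KRT15, a type I keratin of basal cells and hair follicle stem cells, measured 6.62, 6.09 and 6.46 in CD133+ and 6.29, 5.79 and 6.21 in CD133- repetitions 1, 2 and 3. The fractions overlapped, because repetition 2 was low in both, but the gap was 0.32, 0.31 and 0.25 within repetitions. The log2 difference was 0.29 (SE 0.19 in the group fit and 0.08 with the block), with limma adjusted p = 0.253 with the block. KRT9, a keratin of palm and sole epidermis, was next at 0.18, while KRT14, the type I chain of basal keratinocytes, had -0.14 and its partner KRT5 had 0.13.

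Keratins of the hair follicle were mostly dim here, with 3 of 14 hair keratins and 1 of 9 root sheath keratins above the median probe set signal. Hair keratins, the hard keratins of the hair shaft, were lower for 11 of 14 members (78.6%), against 52.1% of all genes. Their median was -0.08, with a range from -0.36 to 0.05. The largest differences in this class were KRT38 at -0.36 (SE 0.15) and KRT85 at -0.31 (SE 0.13). Both were lower in 3 of 3 repetitions, and their limma adjusted p was 0.333 and 0.250 with the block. Root sheath keratins were lower for 7 of 9 members (77.8%), with a median of -0.06. The largest differences were KRT75 at -0.21 (SE 0.10) and KRT73 at -0.19 (SE 0.20). KRT222, a keratin-like gene at the edge of the chromosome 17 cluster, measured 3.60, 3.99 and 3.53 in CD133+ and 3.23, 3.25 and 3.17 in CD133- repetitions 1, 2 and 3. The fractions did not overlap and the difference was 0.49 (SE 0.14), but it did not pass (limma adjusted p = 0.169 with the block), and its signal was low in all 6 arrays.

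VIM, encoding vimentin, had the largest absolute difference of the 59 members. Its probe set (7926368) measured 5.79, 5.84 and 6.04 in CD133+ repetitions 1, 2 and 3, and 7.02, 7.06 and 6.73 in the matching CD133- arrays. Every CD133+ array was lower than every CD133- array, and the gap was -1.23, -1.21 and -0.70 within repetitions, smallest in repetition 3. Mean signals of 5.89 ± 0.13 and 6.94 ± 0.18 (SD, n = 3 each) differed by -1.05 (SE 0.13), which is 2.07-fold lower in CD133+ cells. In limma the adjusted p was 0.142 for the group fit and 0.0418 for the block fit, and the exact permutation test again gave p = 0.1. The block call ended without repetition 1 (adjusted p = 0.0985), 2 (0.140) or 3 (0.0980), and with the leading control probe sets included (0.192). The VIM difference was then -0.96, -0.97 and -1.22, and -1.05 with the controls. Over the whole array 43, 18 and 0 of 28230 probe sets passed without repetition 1, 2 and 3, and 0 of 32321 with the controls. In bulk RNA, fewer cells making vimentin and less vimentin RNA per cell cannot be told apart.

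SYNM and NES, whose products assemble together with vimentin, had lower mean signals in CD133+ cells without passing. SYNM encodes synemin, a large filament protein that polymerises only with partners such as vimentin and desmin. It measured 6.01, 5.69 and 6.12 in CD133+ and 6.45, 5.96 and 6.88 in CD133- repetitions 1, 2 and 3. Each CD133+ array was below its own partner, although the fractions overlapped because both arrays of repetition 2 were low. The difference was -0.49 (SE 0.23 in the group fit and 0.11 with the block), with limma adjusted p = 0.189 with the block. NES encodes nestin, which also needs vimentin to polymerise. It measured 6.39, 6.09 and 6.32 in CD133+ and 6.53, 6.43 and 6.52 in CD133- repetitions 1, 2 and 3. The fractions did not overlap, by a narrow margin, and the difference was -0.23 (SE 0.12; limma adjusted p = 0.391 with the block).

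Promoters are shown for 3 filament genes, VIM, SYNM and NES, each lower in 3 of 3 repetitions. That pattern alone did not select them, because 17 of the 59 members had it, as did 18.4% of all genes. Others with it, such as NEFL of the same class, are not shown. Each is the 250 bases before the start of the gene in RefSeq (GRCh38.p14), 5′ to 3′ on the strand of the gene. Capitals mark matches on either strand to any of 6 short motifs. The GC box was searched as GGGCGG. The box bound by NF-Y was searched as CCAAT. The E-box of ZEB and SNAI factors was searched as CACCTG. The TATA box was searched as TATAAA. The AP-1 site was searched as TGANTCA. The ETS site was searched as CCGGAAGT.
VIM, chr10:17227991-17228240, + strand: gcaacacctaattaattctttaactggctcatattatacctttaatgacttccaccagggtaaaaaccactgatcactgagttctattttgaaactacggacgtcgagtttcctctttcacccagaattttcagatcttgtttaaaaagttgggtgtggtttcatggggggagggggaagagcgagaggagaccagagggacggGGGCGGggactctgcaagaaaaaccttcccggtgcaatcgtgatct
SYNM, chr15:99104830-99105079, + strand: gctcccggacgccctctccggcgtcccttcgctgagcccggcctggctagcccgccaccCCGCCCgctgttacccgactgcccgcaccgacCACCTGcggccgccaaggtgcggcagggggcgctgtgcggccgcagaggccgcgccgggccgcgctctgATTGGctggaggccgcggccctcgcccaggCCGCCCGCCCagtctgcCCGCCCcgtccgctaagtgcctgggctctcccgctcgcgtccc
NES, chr1:156677408-156677657, - strand: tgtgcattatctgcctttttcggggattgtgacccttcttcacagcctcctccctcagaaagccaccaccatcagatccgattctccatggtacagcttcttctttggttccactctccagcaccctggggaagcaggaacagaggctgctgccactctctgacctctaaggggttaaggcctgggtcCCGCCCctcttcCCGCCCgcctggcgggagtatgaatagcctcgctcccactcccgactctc

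A GC box was found in all 3 windows, once in VIM, 46 bases before the start, 4 times in SYNM and 2 times in NES, and 42.6% of 35116 promoters of the same length hold it. The E-box letters were found once, in SYNM, 159 bases before the start, and are held by 17.5% of promoters. CCAAT was found in SYNM (32.0% of promoters). The TATA box letters (10.7%), the AP-1 letters (6.57%) and the ETS letters (3.42%) were not in these windows. The windows differed in base composition, with 46.0% G and C in VIM, 78.8% in SYNM and 58.0% in NES. Of the 59 members, 39 had an entry in that table, KRT18 and KRT23 not among them, and other members are not shown. A match is a description of letters and not a site.

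The other members of this class stayed closer to 0. DES, the muscle filament desmin, had 0.07 and GFAP, the astrocyte filament, -0.01. The neurofilament chains NEFL, NEFM and NEFH, which fill axons, had -0.13, 0.11 and -0.17. NEFL arrays did not overlap between the fractions, at 5.02 to 5.03 in CD133+ and 5.06 to 5.32 in CD133- cells. In the class as a whole 6 of 8 members were lower (75%, against 52.1% of all genes), with a median of -0.15. VIM was the 1 member of the class that passed with the block.

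Lamins showed no difference between the fractions that passed either fit. LMNB1, a B-type lamin, measured 9.24, 9.74 and 8.94 in CD133+ and 9.34, 9.73 and 8.98 in CD133- repetitions 1, 2 and 3. Both arrays of repetition 2 were high and both of repetition 3 low, so the repetitions differed by more than the fractions did. Its difference was -0.04 with a 95% interval of -0.24 to 0.15 with the block. LMNB2, the second B-type lamin, measured 9.50, 9.80 and 9.43 in CD133+ and 9.61, 9.89 and 9.14 in CD133- cells, a difference of 0.03. LMNA, which encodes the A-type lamins, measured 8.91, 9.04 and 8.83 in CD133+ and 9.24, 9.19 and 8.82 in CD133- cells. The LMNA difference was -0.16 (95% interval -0.38 to 0.07 with the block), and it was lower in 2 of 3 repetitions.

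The members divided by what they varied with. The sum of squares over the 6 arrays was split into repetition, fraction and residual. Over the 59 members the median share was 52.1% for repetition and 12.5% for fraction, and over all genes it was 67.8% and 8.21%. The repetition share went with signal. Its median was 68.7% in the 22 members above the median probe set signal and 46.5% in the 37 others. The fraction share exceeded the repetition share in 17 members, a count not made over all genes. VIM stood at one end, with 94.5% of its variation between fractions and 0.245% between repetitions, followed by KRT23 with 93.3% and 6.39% and KRT18 with 90.3% and 8.92%. LMNB1 stood at the other, with 99.1% of its variation between repetitions and 0.464% between fractions. KRT7 and KRT19 also followed repetition, at 94.5% and 94.0%. These shares describe 6 arrays and were not tested.

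**Figure D3:**
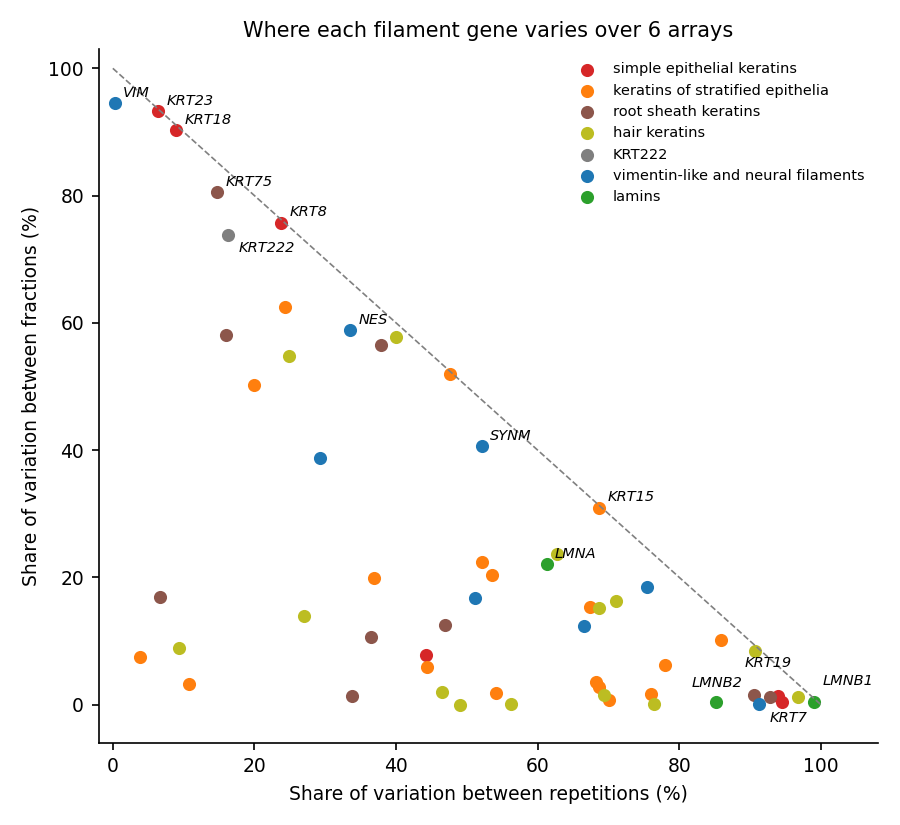
Share of the variation over 6 arrays that lay between repetitions (horizontal, %) and between fractions (vertical, %) for each of the 59 filament genes; points on the dashed line have no residual. VIM, KRT23 and KRT18 lie at the top left and LMNB1, KRT7 and KRT19 at the bottom right.

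The keratin clusters were read in RefSeq gene order. KRT8 and KRT18 lie next to each other at the end of the chromosome 12 cluster, the type II cluster in which KRT18 is the type I exception, and both were lower. The next measured keratin, KRT78, had -0.07. On chromosome 17, KRT23 lies between KRT20 at 0.07 and KRT39 at -0.08 among the measured genes. Of 21 chromosome 12 keratins 13 were lower (61.9%), and of 27 on chromosome 17 it was 16 (59.3%), against 52.1% of all genes.

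Genes listed as binding, anchoring or processing filaments numbered 54, of which 51 were measured. In the block fit 1 of these 51 passed, DSC3, against 0.298% of probe sets, and 0 passed with group as the only term. In that fit 2 had an unadjusted p under 0.05 (3.92%, against 3.45% of probe sets). There were 30 higher and 21 lower, with a median of 0.0051. DSC3 encodes desmocollin 3, a desmosomal cadherin to whose plaque keratins attach. It measured 6.68, 7.02 and 6.33 in CD133+ and 6.05, 6.17 and 5.57 in CD133- repetitions 1, 2 and 3. The CD133+ arrays all lay above the CD133- arrays, and the gap was 0.63, 0.85 and 0.76 within repetitions. DSC3 rose by 0.75 (SE 0.22 in the group fit and 0.09 with the block), with limma adjusted p = 0.0394 with the block. Its call ended without repetition 1 (adjusted p = 0.0768), 2 (0.138) or 3 (0.222), and with the leading control probe sets included (0.161). The DSC3 difference ran from 0.57 to 0.92 over all 21 alternative settings. Over the whole array 43, 18 and 0 of 28230 probe sets passed without repetition 1, 2 and 3, and 0 of 32321 with the controls.

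The block fit gave 10 partners an unadjusted p under 0.05 (19.6%, against 11.3% of probe sets), and those other than DSC3 did not pass. DSG2, the desmosomal cadherin of simple epithelia, had 0.23. Plakins are giant proteins that link filaments to junctions and other cytoskeletal fibres, and those with an unadjusted p under 0.05 were MACF1 at -0.38, DST at -0.31 and EVPL at -0.23. DSP, the main desmosomal plakin, had -0.20 with an unadjusted limma p of 0.0742 in the block fit. PLEC had -0.10, while EPPK1 and PPL had 0.10 and 0.06, so the measured plakins lay on both sides of 0. In the group listed as filament binding or modifying, KRTCAP3, a keratinocyte-associated protein not established as a filament binder, had 0.31. FAM83H, which organises keratin filaments, had 0.26, SFN, the 14-3-3 protein of epithelia, 0.26, and TCHP, which binds KRT8 and KRT18, 0.24. KLHL24, a ubiquitin ligase adaptor for keratin, had -0.48, with 91.0% of its variation between repetitions. The 15 lamina partners ran from -0.09 to 0.11, and 0 of them had an unadjusted p under 0.05 in either fit.

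**Figure D4:**
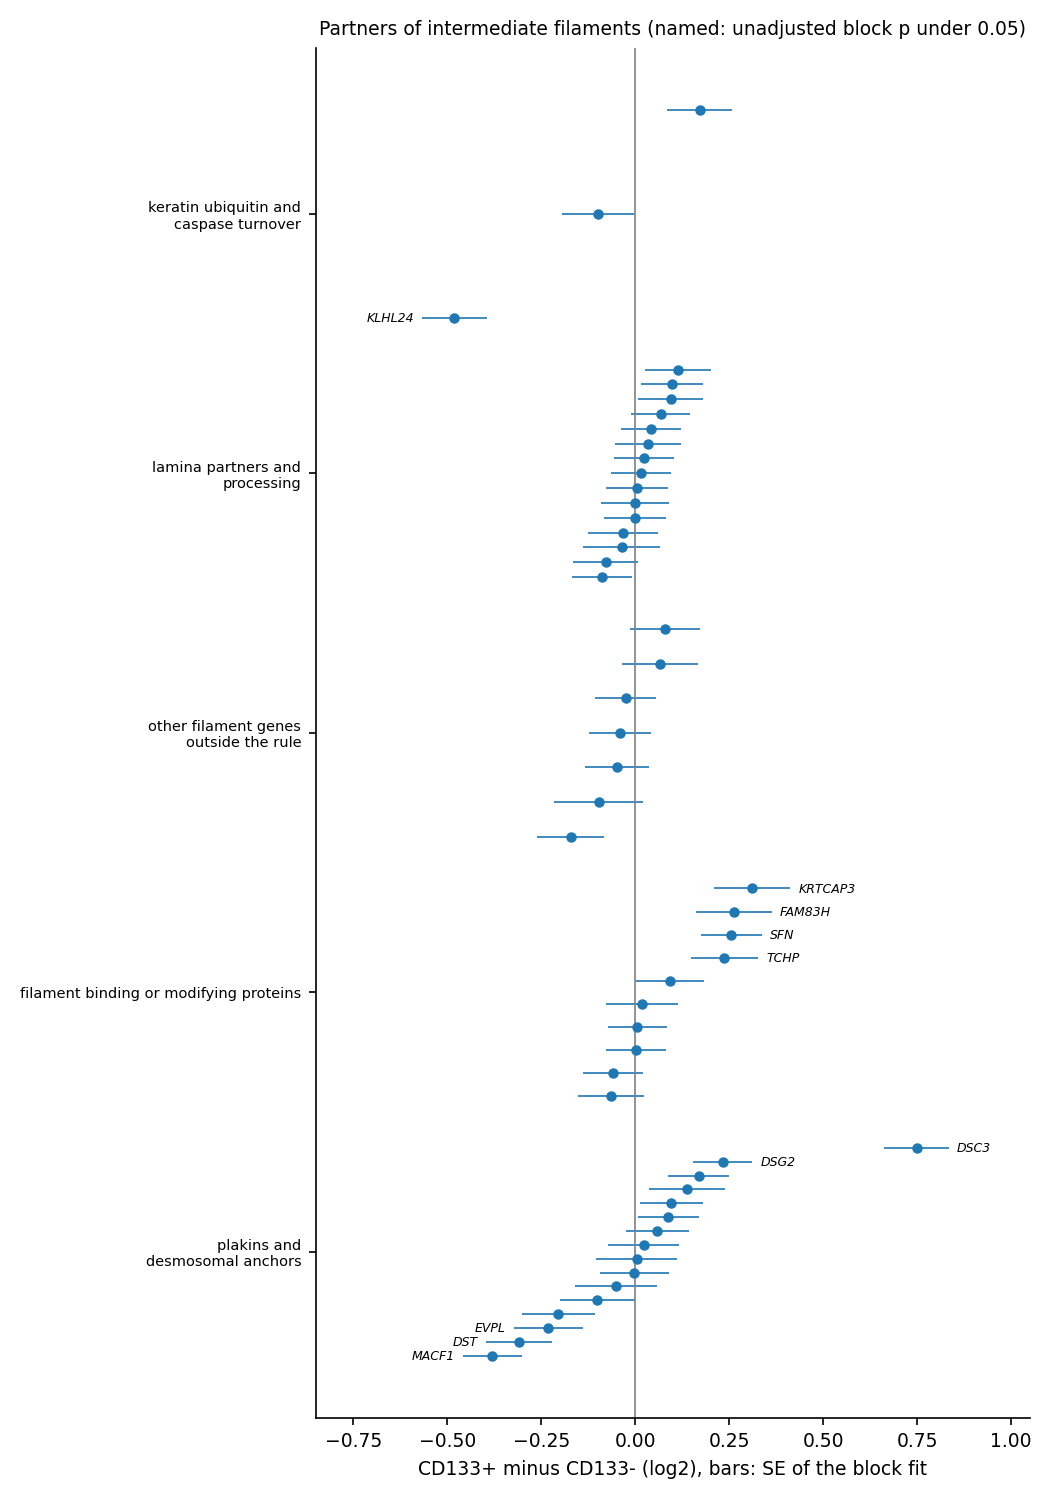
Difference between CD133+ and CD133- cells on the log2 scale for 51 genes listed as binding, anchoring or processing filaments, in 5 groups, with bars showing the standard error of the block fit. DSC3 at 0.75 lies apart from the other desmosomal anchors, KLHL24 at -0.48 is lowest, and the lamina partners cluster around 0.

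Markers of other cell types were read beside these results. Of 10 fibroblast markers, cells in which vimentin is abundant, 3 were higher and 7 lower in CD133+ cells and 0 passed. The mean signal of that list was 4.42 to 4.59 over the CD133+ arrays and 4.42 to 4.69 over the CD133- arrays, and 0 of them had an unadjusted p under 0.05 in either fit. The fibroblast proteoglycan genes DCN and LUM averaged 2.66 and 2.22 over the 6 arrays. Of the fibrillar collagen genes on the list, COL1A1 averaged 7.47, COL3A1 5.22 and COL1A2 5.42. COL1A1 (-0.19) and COL3A1 (-0.21) were lower in CD133+ cells in 3 of 3 repetitions without passing, while COL1A2 had 0.01. Measured leukocyte markers (6 of 8) had list means of 3.81 to 3.94 and 3.83 to 4.10, and endothelial markers (6 of 6) 4.30 to 4.35 and 4.28 to 4.41. Measured keratinocyte markers (6 of 8) had list means of 4.61 to 4.74 and 4.52 to 4.84. They are not separate from the genes above, because KRT5, KRT14, KRT1 and KRT10 are members and DSG3 is a partner gene. The ranges of the fractions overlapped in each of these lists, and their part in the VIM and KRT15 values was not tested. Among colon epithelial markers, 6 of 11 were higher and 5 lower, the lower ones including the members KRT8 and KRT18. CDH1 had the largest difference of the higher ones, 0.40, and was higher in 3 of 3 repetitions without passing (limma adjusted p = 0.334 with the block). EPCAM, an adhesion molecule of epithelial cells, had a mean signal of 11.00 and a difference of 0.22, higher in 2 of 3 repetitions. The intestinal transcription factor gene CDX2 averaged 7.04, whereas CDH17, VIL1, GPA33, LGALS4 and KRT20, genes of differentiated intestinal epithelium, averaged 3.16 to 5.40, below the median probe set signal.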

How the data were processed

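Sorted HCT116 cells gave total RNA that was biotin-labelled with a whole-transcript kit for Affymetrix arrays (per the labels). The deposited values are log2 signals that the authors made with RMA, per the design text and the submitters' processing notes; the scale was read from the values (1.09 to 13.7), and a software version and genome build are not given in the sources used here. A U133 array is named in the design text, but identifiers and annotation are those of a Human Gene ST array. Of 32321 rows, a leading block of 4091 without genes was left out as controls, leaving 28230. Each gene took its probe set of highest mean. Members, lists and tests were chosen with earlier results of these data known.

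Differences were fitted with limma 3.58.1 in R 4.3.3 over all 28230 probe sets, with group as the only term, Benjamini-Hochberg adjustment and a threshold of 0.05. Repetition as a block was the alternative. Once group means were removed, arrays sharing a number correlated at 0.447, 0.616 and 0.589, above 0.1 in all 3 pairs, so the numbers were taken as pairs by the data, not the labels. The fits were also run on simulated data, with a check only on the mean estimated difference and none on the rate of false or missed calls. Named members were VIM, the simple epithelial keratins, the lamins and every other member above the median mean signal of 5.53 with an unadjusted p under 0.05 in either fit; each other class gave its 2 largest differences, and partner genes those that passed and up to 8 of smallest block p. EVPL, DSP, PLEC, EPPK1, PPL, KRT14, KRT5 and the remaining single genes were added after their values were seen. The table had 0 unused columns. The number of arrays limits the precision.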

Additional observations from a re-analysis of the deposited data

How the results depend on the processing

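Counts of members that passed were 0 with group as the only term, also with repeated quantile normalization, median centring, a filter on dim probe sets, a trended variance prior, the mean of probe sets, the control probe sets included, or any single array left out. Over all probe sets only 0 to 2 passed in each of these settings, so a member count of 0 says little about the members. With the replicate block 2 members passed (KRT23 and VIM), as with the block after repeated quantile normalization or centring, 2 each. Over all 28230 probe sets, 84, 67 and 84 passed in these settings. With the block, 3 passed after the dim filter, where 403 of 14115 probe sets passed, and 3 with the trended prior, where 347 of 28230 passed. In both, KRT18 was the added member, lower in CD133+ cells (limma adjusted p = 0.0203 and 0.0104). With the block 0 passed without repetition 1, 2 or 3, where 43, 18 and 0 of 28230 probe sets passed. With the block and the control probe sets included 0 members passed, as did 0 of 32321 probe sets. For filament partners the count was 0, against 1 with the block, 1 with the block after quantile normalization or centring, and 3 with the block after the dim filter or with the trended prior (DSC3, MACF1 and KLHL24). The counts over all probe sets in these settings are those given above for the members. The block changed no other call.

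The median difference of members was -0.04 and ran from -0.094 to -0.0093 with single arrays left out (lowest without CD133- array 2, highest without CD133- array 3), where repetitions become unbalanced, and from -0.053 to -0.018 without a whole repetition. Signs were reversed for 5 genes with small differences when arrays were left out. KRT7 ran from -0.22 to 0.16, KRT19 from -0.10 to 0.16, KRT20 from -0.028 to 0.19, LMNB1 from -0.26 to 0.15 and LMNB2 from -0.17 to 0.20; with the block, KRT7 was 0.046 without repetition 1, KRT20 -0.032 without repetition 2 and LMNB2 -0.099 without repetition 3. The other 8 named members kept their sign in all 21 alternatives, but single arrays moved 4 of them by over 1.5 times. SYNM was -0.26 without CD133- array 3 and NES -0.14 without CD133+ array 2. KRT15 was 0.18 and 0.44 without CD133+ arrays 1 and 2, and 0.14 without CD133- array 2. LMNA was -0.079, -0.10 and -0.29 without CD133- arrays 1, 2 and 3, and with the block -0.072 and -0.24 without repetitions 1 and 3. The cause of these changes was not tested. The 3 arrays per fraction limit the precision of every difference.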
